A study of Mus musculus with 12 samples.

Results

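The annexin and S100 genes Anxa1, Anxa2, Anxa3, Anxa4, Anxa5, Anxa6, S100a4, S100a6, S100a10 and S100a11 were followed in mouse liver across 2 genotypes and 2 diets. Members were the probe sets annotated with exactly 1 of these 10 symbols, which gave 15 of 22626 probe sets and 9 of 12393 genes. The probe sets comprised 11 for the 6 annexins and 4 for 3 S100 genes. S100a11 had no probe set that carried its symbol alone and was not analysed here. The genes were selected on genotype differences measured on these arrays, taken here to be those on the control diet, so the control-diet genotype values are given as a description without a test.

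Total RNA of whole liver from male mice aged 6 to 8 weeks was hybridized to 12 Affymetrix 430A arrays, each carrying the pooled RNA of 3 mice, with 3 arrays per group. The groups were wild-type C57BL/6 and mice null for cytochrome P450 reductase (POR, which passes electrons to the microsomal cytochromes P450), whose strain is also labelled C57BL/6. All mice ate the soya-free RM3 powdered diet for 14 days. Mice of each genotype then spent 24 h either on the same diet (control) or on one carrying 6.2 g per kg of the plant flavonol quercetin, a dose the labels also state as 7 mg for each mouse. The promoter or cell type in which POR was disrupted is not given in the sources used here. Values are on the authors' log2 scale, so a difference of 1 is a 2-fold difference.

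Annexins are cytosolic proteins that bind phospholipid membranes when calcium rises. S100 proteins are small calcium-sensing dimers of the EF-hand type, and several of them bind annexins. The best known pair is S100a10 with Anxa2, which links membranes to the actin cytoskeleton and can display plasminogen receptors on the cell surface. In liver these genes are expressed to differing degrees by hepatocytes, bile duct cells, macrophages, endothelial and stellate cells.

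In the GRCm38.p6 RefSeq gene table all 4 S100 members lay on chromosome 3, with S100a4, S100a5 and S100a6 next to one another and S100a10 beside S100a11. The 6 annexins lay on 6 different chromosomes. RefSeq promoter windows matched 7 of the 10 members, and Anxa3, Anxa6 and S100a10 were not among them. The 250 bases before the start of Anxa5, the annexin with the largest genotype difference, and of Anxa2, which differed less, are shown from GRCm38.p6. Capitals mark matches on either strand to any of 4 motifs. The TATA box was searched as TATAAA. The CCAAT box was searched by the letters of its name. The GC box was searched as GGGCGG. The nuclear receptor half-site was searched as AGGTCA.
Anxa5, chr3:36475888-36476137, minus strand: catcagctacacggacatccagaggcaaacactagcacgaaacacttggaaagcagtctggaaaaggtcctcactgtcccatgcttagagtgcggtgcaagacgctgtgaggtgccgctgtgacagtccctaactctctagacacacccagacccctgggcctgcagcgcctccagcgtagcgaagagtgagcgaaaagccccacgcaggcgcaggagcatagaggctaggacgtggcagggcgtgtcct
Anxa2, chr9:69453433-69453682, plus strand: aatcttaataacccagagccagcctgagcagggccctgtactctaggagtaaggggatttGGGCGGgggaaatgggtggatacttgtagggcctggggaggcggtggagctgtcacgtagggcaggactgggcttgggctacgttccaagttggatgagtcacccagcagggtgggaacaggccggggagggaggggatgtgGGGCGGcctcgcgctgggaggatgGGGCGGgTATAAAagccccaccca
The Anxa5 window held 0 matches to any of these motifs, whereas the Anxa2 window held 1 TATA box and 3 GC boxes. Among 32841 RefSeq promoter windows of this length, 12.4% held the TATA box, 33.9% the CCAAT box, 32.7% the GC box and 14% the half-site. The Anxa5 window held 13 CG dinucleotides and the Anxa2 window 9, against a median of 6 over all windows. A match describes the letters of the window and does not show that a factor binds there.

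Anxa5 was higher in POR-null liver on both diets. Its protein binds phosphatidylserine, the lipid that dying cells expose, and is used in the laboratory to detect them. On the control diet its values were 8.15, 8.08 and 8.09 in wild-type arrays 1, 2 and 3 and 10.4, 9.84 and 8.74 in POR-null arrays 1, 2 and 3. All 3 POR-null arrays lay above all 3 wild-type arrays, but array 3 stood far below the other POR-null arrays. The difference was 1.55 ± 0.29 log2 units (SE, 3 arrays per group), a 2.93-fold difference. It was 2.01 without POR-null control array 3 and 1.18 without POR-null control array 1.

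On the quercetin diet, whose 6 arrays share none with the control-diet comparison, Anxa5 values were 8.23, 8.04 and 8.33 in wild type and 9.87, 10.1 and 9.51 in POR-null. The groups again did not overlap, and the spread among POR-null arrays was smaller than on the control diet. Anxa5 was higher in POR-null by 1.63 ± 0.29 log2 units, a 3.10-fold difference (95% confidence interval 1.02 to 2.24 log2 units, limma adjusted p = 0.0092). The call was lost when wild-type quercetin array 2 or POR-null quercetin array 2 was left out (differences of 1.55 and 1.49, limma adjusted p = 0.05 and 0.0516, against 0.0159 to 0.0496 without each of the other 4 arrays). Results on the quercetin diet may also have been in view when the genes were proposed.

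S100a10 was the other member that rose. It is an unusual S100 protein that no longer responds to calcium and works mainly as the partner of Anxa2. By its brighter probe set the control-diet values were 9.00, 8.92 and 9.05 in wild type and 10.7, 10.3 and 9.76 in POR-null, a difference of 1.24 ± 0.16 log2 units. All 3 POR-null arrays were higher, with array 3 again the lowest. On the quercetin diet the values were 9.50, 9.36 and 9.64 in wild type and 10.5, 10.6 and 10.5 in POR-null. These groups were well separated, and S100a10 was higher in POR-null by 1.03 ± 0.16 log2 units, a 2.05-fold difference (95% confidence interval 0.69 to 1.38, limma adjusted p = 0.00552). It stayed past the threshold without each of the 6 arrays in turn (limma adjusted p = 0.0145 to 0.0332).

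The dimmer S100a10 probe set, of a kind that can also detect related transcripts, gave 8.41, 7.88 and 7.92 in wild-type control and 9.79, 9.52 and 8.51 in POR-null control. Its difference there was 1.21 ± 0.24 log2 units without overlap. On the quercetin diet it differed by 0.85 ± 0.24 log2 units, with all 3 POR-null arrays higher, and did not pass (limma adjusted p = 0.0847). The 2 probe sets followed each other at r = 0.95 over the 12 arrays.

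**Figure D1:**
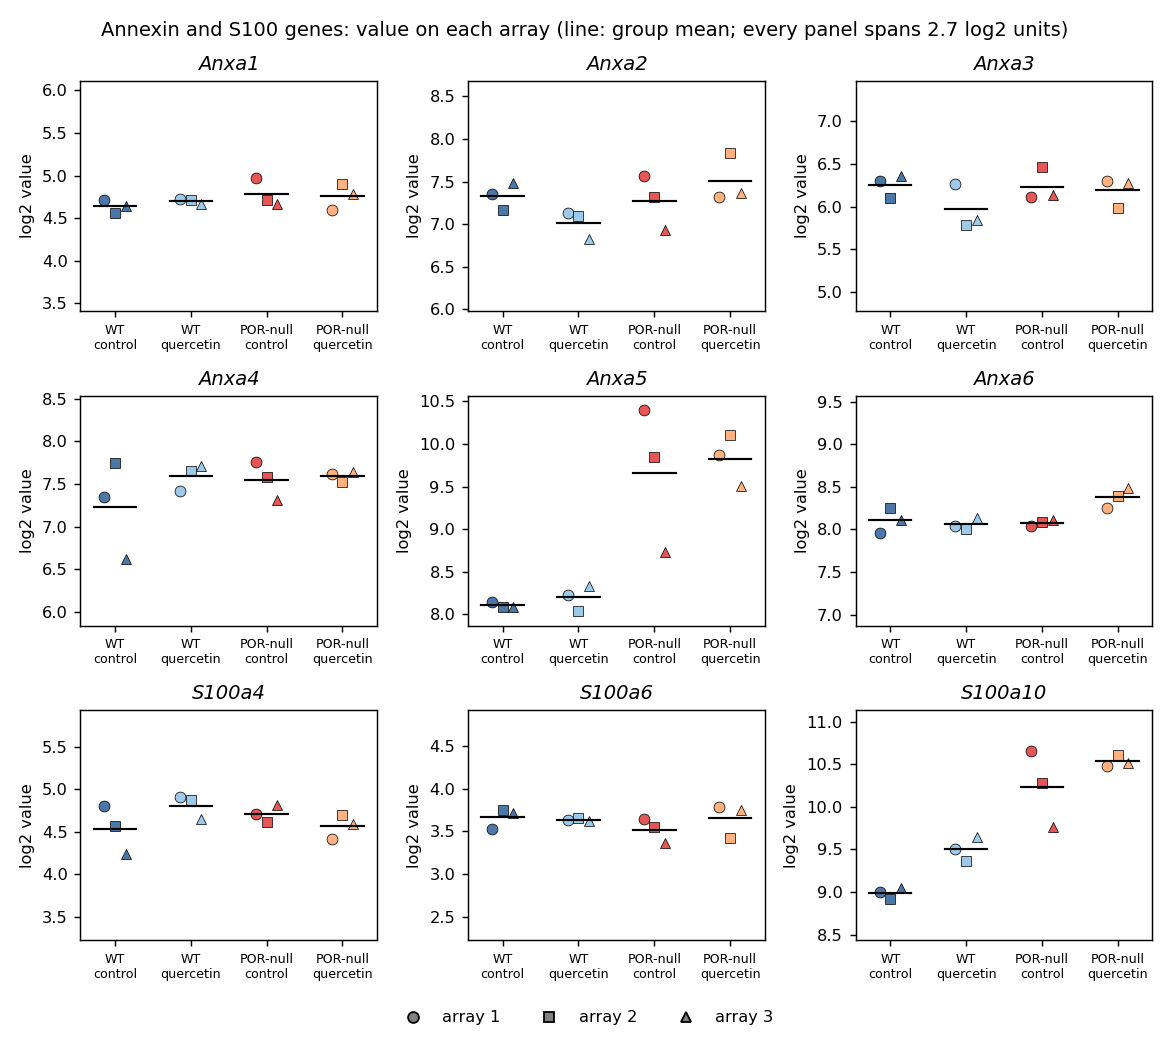
Each panel plots the log2 value of a member gene by its brightest probe set on each of the 12 arrays, by group, with circles, squares and triangles for arrays 1, 2 and 3 and a line at the group mean; every panel spans the same range of log2 units. Anxa5 and S100a10 stand higher in both POR-null groups, with POR-null control array 3 the lowest POR-null array for both, while the other panels show groups that mostly overlap.

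Over all members, 2 of 15 probe sets passed on the quercetin diet, both higher in POR-null, where 2.33% of all probe sets passed in either direction, 1.75% as higher and 0.579% as lower. Of the 15, 11 lay above 0 (44% of all probe sets) and 6 had an unadjusted limma p under 0.05 (17% of all). The 6 were probe sets of Anxa5, Anxa6, Anxa2 and S100a10 only. Both S100a10 probe sets were among them, as were Anxa2 probe sets of opposite sign (0.49 and -0.14 log2 units). The median difference of the member probe sets was 0.06 log2 units, against -0.02 over all probe sets. POR-null arrays lay above wild-type arrays without overlap for 5 of 15 member probe sets on this diet (11.9% of all probe sets) and below for 1 (13% of all). The 5 included both S100a10 probe sets and the brightest of Anxa2, and the 1 below was a dimmer Anxa2 probe set. Probe sets of the same gene are not separate genes in these counts. On the control diet 3 of 15 lay above without overlap, the same Anxa5 and S100a10 probe sets, where 8.04% of all probe sets did, and 0 lay below (9.24% of all). They also lay above without overlap on both diets, as did 3.29% of all probe sets. On the control diet 1.16% of all probe sets passed, 0.822% as higher and 0.336% as lower, and 7 of 15 members lay above 0 (46.6% of all). Nothing is read from the control-diet counts, since the genes were chosen with that comparison known. The quercetin-diet results may have been in view as well, so the counts on that diet are also a description.

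Anxa2, the binding partner of S100a10, did not follow it on the control diet. Its brightest probe set read 7.35, 7.16 and 7.48 in wild type and 7.56, 7.32 and 6.93 in POR-null, a difference of -0.06 ± 0.17 log2 units with overlapping groups. On the quercetin diet it read 7.13, 7.10 and 6.82 in wild type and 7.32, 7.84 and 7.36 in POR-null. There the 3 POR-null arrays were all higher, by 0.49 ± 0.17 log2 units (95% confidence interval 0.13 to 0.85), but the difference did not pass (limma adjusted p = 0.148). The other Anxa2 probe sets did not share it, at -0.03 ± 0.10 and -0.14 ± 0.07 log2 units, and as the mean of its 3 probe sets Anxa2 differed by 0.10 (limma adjusted p = 0.538). These dimmer probe sets correlated with the brightest at r = -0.03 and -0.30 over the 12 arrays, so the Anxa2 probe sets disagreed. Their means over all arrays were 5.65 and 3.29, below the median of all values, 5.96, against 7.28 for the brightest. The first is also of a kind that can detect related transcripts. Differences of such dim probe sets may be compressed, so it is not settled which of the 3 probe sets is right. The mean of the 3 includes the dim ones.

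Anxa6, an annexin with a doubled core that binds late endosomal and plasma membranes, lay close together in 3 of the 4 groups. Its brightest probe set had means of 8.11 ± 0.15 and 8.06 ± 0.06 in wild type on the control and quercetin diets (SD, n = 3). The means in POR-null were 8.08 ± 0.04 and 8.38 ± 0.12 on the same diets. The POR-null quercetin arrays read 8.25, 8.40 and 8.49, and did not overlap with those of wild-type quercetin (8.05, 8.01 and 8.13). The difference of 0.31 ± 0.10 log2 units did not pass (limma adjusted p = 0.105). Of 14 alternatives it passed in 1, with array weights (0.33, limma adjusted p = 0.0451). It was 0.23 after quantile normalization (limma adjusted p = 0.237) and 0.19 as the mean of the Anxa6 probe sets (limma adjusted p = 0.389). The other Anxa6 probe sets differed on that diet by 0.25 ± 0.16 and 0.01 ± 0.13 log2 units.

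Anxa4, an annexin prominent in secretory epithelia such as bile duct, varied most among wild-type control arrays, at 7.34, 7.75 and 6.61. Its dimmer probe set showed the same low array 3, at 6.35, 6.16 and 5.41. The genotype differences by the brighter probe set were 0.32 ± 0.21 log2 units on the control diet and -0.001 on the quercetin diet, with a 95% confidence interval of -0.44 to 0.44 for the latter. Anxa3 differed by -0.02 ± 0.14 on the control and by 0.22 ± 0.14 log2 units on the quercetin diet. Anxa1, whose protein is known for damping inflammation after glucocorticoids, differed by 0.14 ± 0.10 and 0.06 ± 0.10 log2 units. On the quercetin diet none of Anxa1, Anxa3 and Anxa4 passed (limma adjusted p = 0.461 to 0.999).

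S100a4, known as a marker of fibroblasts and of some leukocytes, read 4.91, 4.87 and 4.65 in wild-type quercetin and 4.42, 4.70 and 4.60 in POR-null quercetin, a difference of -0.24 ± 0.13 log2 units (limma adjusted p = 0.377). On the control diet its difference had the opposite sign, at 0.17 ± 0.13 log2 units. S100a6, or calcyclin, differed by -0.15 ± 0.10 on the control and by 0.02 ± 0.10 log2 units on the quercetin diet (limma adjusted p = 0.951 for the latter). Both genes and Anxa1 had means over all arrays (4.66, 3.62 and 4.72) below the median of all values, 5.96. Differences of such dim probe sets may be compressed, and calls of detection were not used here.

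Within the member annexins, the 95% confidence interval of Anxa5 on the quercetin diet began at 1.02, and the highest upper bound of the other member annexin probe sets was 0.85, for Anxa2. Among the annexins that are not members, Anxa13 reached highest, to 0.97. The interval of S100a10 began at 0.69 for the brighter and at 0.33 for the dimmer probe set. The upper bounds of S100a4 and S100a6 were 0.04 and 0.23, but that of S100a8, which is not a member, was 0.74 and lay within the S100a10 intervals. Anxa13 and S100a8 lay below the median of all values, where differences may be compressed. The differences between genes were not tested. The value of S100a10 minus that of Anxa2 spanned 1.57 to 1.76 on wild-type control arrays and 2.26 to 2.82 on wild-type quercetin arrays. It spanned 2.84 to 3.09 on POR-null control arrays and 2.77 to 3.16 on POR-null quercetin arrays. Since probe sets differ in brightness, only the shift of this value between groups can be read, not its size.

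**Figure D2:**
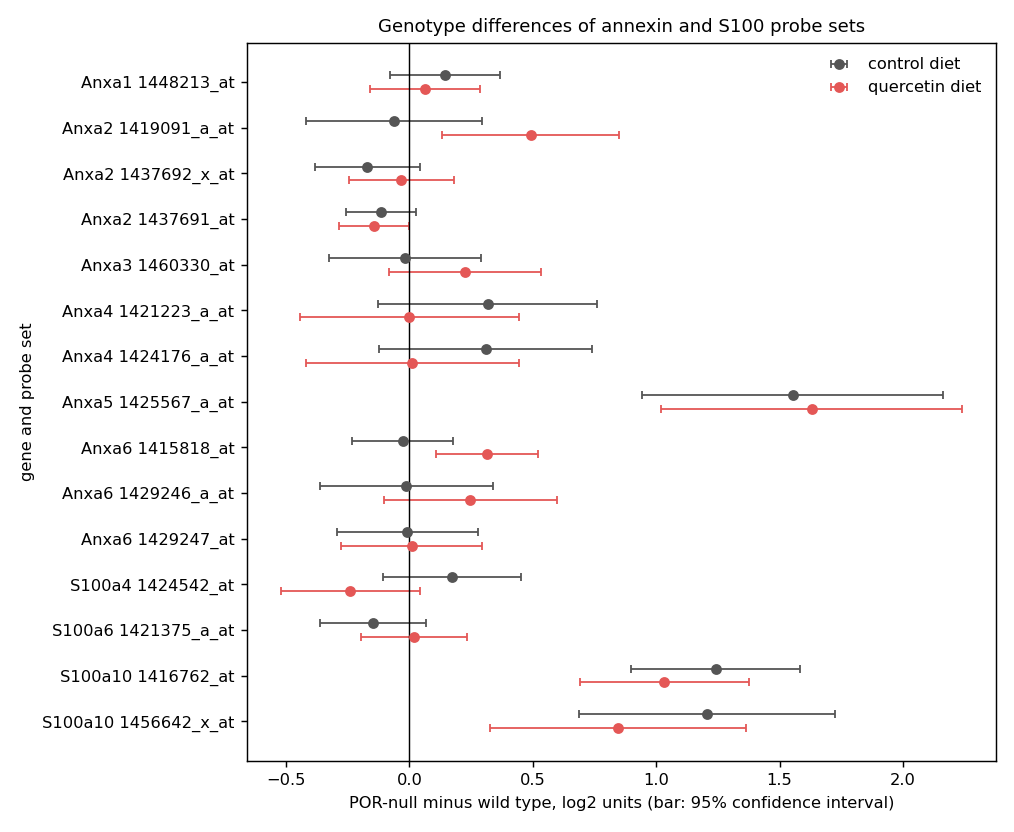
POR-null minus wild-type differences in log2 units of the 15 member probe sets, on the control diet (grey) and the quercetin diet (red), with 95% confidence intervals as bars. The points of Anxa5 and of both S100a10 probe sets lie to the right of 0 on both diets, from 0.85 to 1.63 log2 units, and all other points lie between -0.24 and 0.49.

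Anxa5 and S100a10 also varied together among arrays of a genotype. Across the 6 POR-null arrays of both diets their values correlated at r = 0.90, and across the 6 wild-type arrays at r = 0.70. With the group means removed, r over the 12 arrays was 0.94. That value rested largely on the POR-null control arrays, whose spread was widest. Their SD was 0.85 for Anxa5 and 0.45 for S100a10, against 0.04 to 0.30 and 0.07 to 0.14 in the other groups. Both genes were read from the same arrays. For both genes POR-null control array 1 was the highest of the 12 arrays and POR-null control array 3 the lowest POR-null array. That array also lay nearest to wild type over all probe sets, at 0.11 on the first principal component (33.0% of the variance) against 7.88 to 23.0 for the other POR-null arrays and -23.7 to -6.11 for the wild-type arrays. Anxa2 correlated with S100a10 at r = 0.87 over the 6 POR-null arrays and at r = -0.77 over the 6 wild-type arrays. These values include the shifts between diets, and with the group means removed r over the 12 arrays was 0.66. These few points share their arrays, and the correlations are descriptions.

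**Figure D3:**
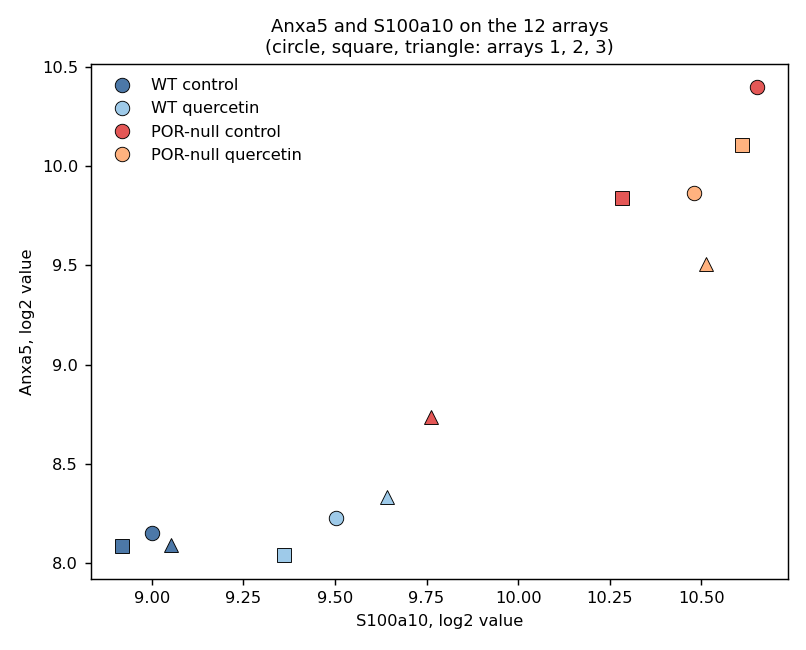
Log2 values of S100a10 (horizontal axis) and Anxa5 (vertical axis) on each of the 12 arrays, coloured by group, with circles, squares and triangles for arrays 1, 2 and 3. Wild-type arrays lie at Anxa5 values of 8.04 to 8.33 while S100a10 runs from 8.92 to 9.64, and 5 of the 6 POR-null arrays lie at the upper right, with POR-null control array 3 between them and wild type.

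The genes whose pattern over the 12 arrays was most like that of Anxa5, among 7393 other genes with a mean above the median of all values, were Dclre1a, Rpa1 and Eif4e3 (Pearson's r = 0.97, 0.97 and 0.96). Rpa1 encodes a subunit of the single-stranded DNA binding protein RPA. For S100a10 they were Cyp8b1, the sterol 12-alpha-hydroxylase of bile acid synthesis, Stt3a, a subunit of oligosaccharyltransferase, and Oat, ornithine aminotransferase (r = 0.98, 0.98 and 0.98). After the group means were removed the values were 0.90, 0.87 and 0.85 for Anxa5 and 0.87, 0.91 and 0.78 for S100a10. For Anxa5 they were 0.92, 0.90 and 0.90 over the 6 POR-null arrays but 0.53, 0.31 and 0.32 over the 6 wild-type arrays. For S100a10 they were 0.97, 0.93 and 0.89 over the POR-null and 0.87, 0.95 and 0.92 over the wild-type arrays. The other 7 members had lower values for their closest gene, from 0.77 for Anxa3 with Max to 0.91 for Anxa6 with Uqcc3. These are the highest of many correlations, read from shared arrays. For Anxa5 and S100a10, those with the group means removed rested much on the widely spread POR-null control arrays.

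The other members of both families gave 0 calls in each of the 5 comparisons. Of those measured, 4 of 5 annexins and 7 of 10 S100 genes had means below the median of all values. Differences of such dim probe sets may be compressed, so the lack of calls does not show that these genes were unchanged. Of 5 further annexins measured (Anxa7, Anxa8, Anxa9, Anxa10 and Anxa13), 0 passed between the genotypes on the quercetin diet, with differences from -0.12 to 0.51 log2 units, the highest in Anxa13 (limma adjusted p = 0.253). Of 10 further S100 genes 0 passed, with differences from -0.35 to 0.42 log2 units (lowest limma adjusted p = 0.104). They included S100a1 (0.26 ± 0.09), S100a13 (0.20 ± 0.09) and S100a8, a calcium-binding protein of neutrophils (0.42 ± 0.15), whose POR-null arrays were all higher on that diet. S100a8 was dim there, with means of 4.98 in POR-null and 4.56 in wild type. S100a9 went the other way, at -0.20 ± 0.14 with overlap. The POR-null arrays were all lower for S100a3 (-0.34 ± 0.13), S100a14 (-0.21 ± 0.11), S100a16 (-0.17 ± 0.08) and S100b (-0.35 ± 0.11). Among all probe sets 11.9% were higher and 13% lower without overlap on that diet. Of 13 measured partners and receptors of these proteins, 1 passed on the quercetin diet, where 2.33% of all probe sets passed in either direction. Tlr4, a receptor of bacterial lipopolysaccharide and of some S100 proteins, fell by 0.48 log2 units in POR-null on the quercetin diet (SE 0.12, limma adjusted p = 0.0496). On the control diet it differed by -0.19 ± 0.12 log2 units. Cacybp, the calcyclin-binding protein, differed by -0.58 ± 0.16 and did not pass (limma adjusted p = 0.0689), and Ahnak, a large scaffold that binds the Anxa2 and S100a10 complex, differed by -0.04 log2 units.

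Markers of other cells were read on the same arrays, since in bulk liver more cells of a type and more RNA per cell cannot be told apart. All 7 measured hepatocyte markers lay above the median of all values, with list means of 12.2 to 12.4 on every array. On the quercetin diet 6 of the 7 were lower in POR-null (median -0.13 log2 units, 0 calls), and the list means did not overlap, at 12.23 to 12.30 in POR-null against 12.39 to 12.41 in wild type. Of the 7, 4 were lower on the control diet (median -0.05, 0 calls) and the list means overlapped. Hnf4a, a transcription factor of hepatocytes, was lower on all POR-null arrays of both diets and did not pass (-0.32 ± 0.10 and -0.30 ± 0.10, limma adjusted p = 0.118 and 0.16). Of 11 measured macrophage and Kupffer cell markers 9 were higher in POR-null on the quercetin diet (median 0.38 log2 units) and 10 on the control diet (median 0.53). Of these markers Mpeg1, a pore-forming protein of macrophages, passed on both (0.88 ± 0.20 and 0.91 ± 0.20, limma adjusted p = 0.0359 and 0.048), where 2.33% and 1.16% of all probe sets passed. The mean of these markers spanned 7.07 to 7.63 on wild-type control arrays and 7.30 to 8.13 on wild-type quercetin arrays. It spanned 7.65 to 8.00 on POR-null control arrays and 7.77 to 7.98 on POR-null quercetin arrays. Wild-type quercetin array 3 had the highest macrophage mean of all 12 arrays, 8.13, with Anxa5 at 8.33 and S100a10 at 9.64. These were the highest Anxa5 and S100a10 values of the 6 wild-type arrays, and both lay below those of all 6 POR-null arrays. The 2 macrophage markers below 0 on the quercetin diet, named after their values were seen, were Adgre1 and Marco, at -0.25 and -0.63 log2 units.

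Medians of the remaining marker lists on the quercetin diet were -0.02 log2 units for 9 endothelial, -0.05 for 10 stellate cell and fibroblast, -0.12 for 5 bile duct, -0.06 for 7 neutrophil, -0.09 for 5 lymphocyte and 0.07 for 3 mesothelial markers, with 0 calls in each. On the control diet the medians of the same lists were 0.18, 0.17, -0.12, -0.07, 0.06 and 0.07. There Sparc among the stellate cell and fibroblast markers rose by 0.57 ± 0.13 (limma adjusted p = 0.045), where 1.16% of all probe sets passed. All 6 exocrine pancreas markers were higher in POR-null on the quercetin diet (median 1.00 log2 unit, lowest limma adjusted p = 0.357), with array means of 6.89, 7.60 and 9.90 in that group. These means varied widely in wild type too, from 6.73 to 8.61 on control and from 6.33 to 8.32 on quercetin arrays. On the control diet 2 of the 6 markers were higher in POR-null (median -0.11). Without POR-null quercetin array 3, which had the mean of 9.90, Anxa5 differed by 1.79 and S100a10 by 1.04 log2 units on the quercetin diet. The part of the hepatocyte, macrophage and other marker lists in the results for Anxa5 and S100a10 was not tested.

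**Figure D4:**
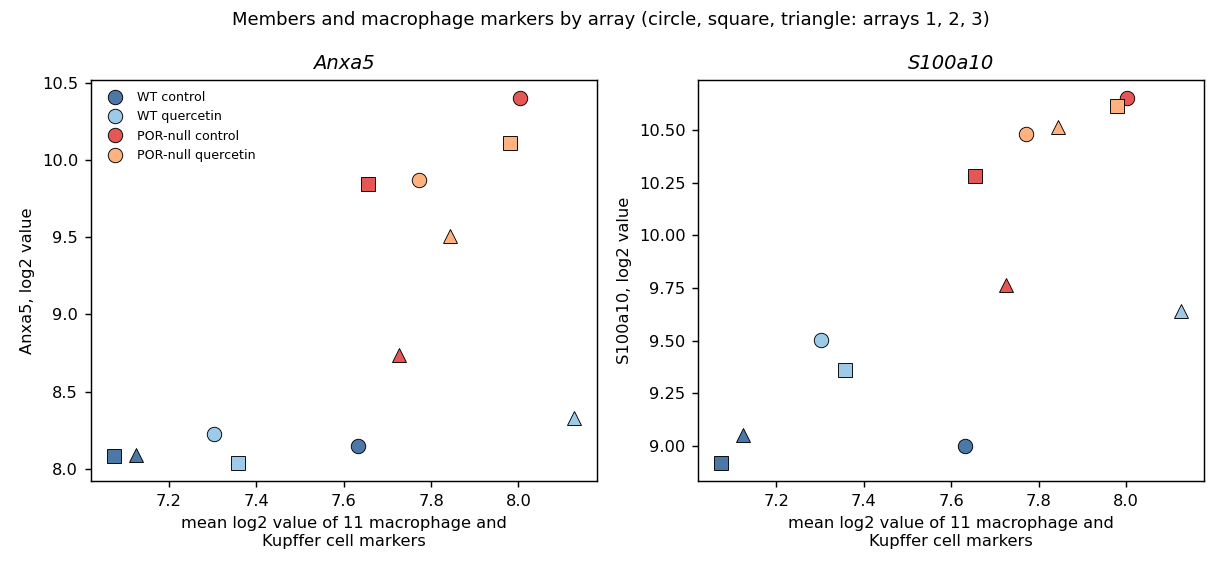
Log2 values of Anxa5 (left) and S100a10 (right) on each array against the mean log2 value of the 11 measured macrophage and Kupffer cell markers, coloured by group, with circles, squares and triangles for arrays 1, 2 and 3. POR-null arrays lie to the right of most wild-type arrays, and wild-type quercetin array 3 has the highest marker mean, 8.13, with the highest wild-type Anxa5 and S100a10 values, 8.33 and 9.64.

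Whether the quercetin diet changed these genes was asked in each genotype. In wild type 0 of 15 member probe sets passed, where 0% of all probe sets did, with 3 members at an unadjusted limma p under 0.05 (8.58% of all probe sets) and 9 above 0 (48.8% of all). Anxa5 differed by 0.09 ± 0.29 log2 units (95% confidence interval -0.52 to 0.70). S100a10 was higher on all 3 quercetin arrays, by 0.51 ± 0.16 log2 units for its brighter probe set (95% confidence interval 0.17 to 0.85, limma adjusted p = 0.425) and by 0.52 ± 0.24 with overlap for the dimmer. It was the only member probe set of 15 higher without overlap, where 5.67% of all probe sets were. Anxa2 was lower on all 3 quercetin arrays by its brightest probe set (-0.32 ± 0.17, limma adjusted p = 0.639) and by the dimmer one of mean 5.65 (-0.25 ± 0.10, limma adjusted p = 0.539), where 6.09% of all probe sets were lower without overlap. All 11 macrophage and Kupffer cell markers lay higher on this comparison too (median 0.30 log2 units, 0 calls). Their list means overlapped, at 7.30, 7.36 and 8.13 on quercetin arrays and 7.63, 7.07 and 7.12 on control arrays. The part of these markers in the S100a10 value was not tested. The wild-type control arrays also serve the control-diet genotype comparison on which the genes were selected. Low values on them enlarge both a rise in POR-null and a rise on quercetin, so these p-values and counts are not independent of the selection.

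In POR-null liver again 0 of 15 member probe sets passed, where 0% of all did, with 1 member at an unadjusted limma p under 0.05 (6.99% of all) and 9 above 0 (48% of all). Anxa5 differed by 0.17 ± 0.29 log2 units (95% confidence interval -0.44 to 0.78) and S100a10 by 0.30 ± 0.16 (limma adjusted p = 0.754). With each array left out in turn, Anxa5 ranged from -0.29, without POR-null control array 3, to 0.54, without POR-null control array 1. S100a10 ranged from 0.07 to 0.51 without the same arrays. The POR-null control arrays also serve the control-diet genotype comparison on which the genes were selected. High values on them enlarge a rise in POR-null and reduce a rise on quercetin, so the p-values and counts here are not independent of the selection. Anxa6 was higher on all 3 quercetin arrays, by 0.29 ± 0.10 log2 units (limma adjusted p = 0.64), where 6.62% of all probe sets were higher without overlap. The dimmer Anxa2 probe set of mean 5.65 was lower on all 3 (-0.11 ± 0.10), as were 7.52% of all probe sets.

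The interaction sets the quercetin difference of POR-null against that of wild type. It contains the control-diet genotype difference on which the genes were selected, so the members' values are given as a description without a test. Over all probe sets 0% passed in limma, 6.17% had an unadjusted p under 0.05 and 49.8% lay above 0, as did 8 of the 15 member probe sets. For Anxa5 the value was 0.08 ± 0.40 log2 units with a 95% confidence interval of -0.78 to 0.94, and for S100a10 it was -0.21 ± 0.23 with an interval of -0.69 to 0.28. The values farthest from 0 were those of Anxa2 (0.55 ± 0.24) and S100a4 (-0.41 ± 0.19), by their brightest probe sets.

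**Figure D5:**
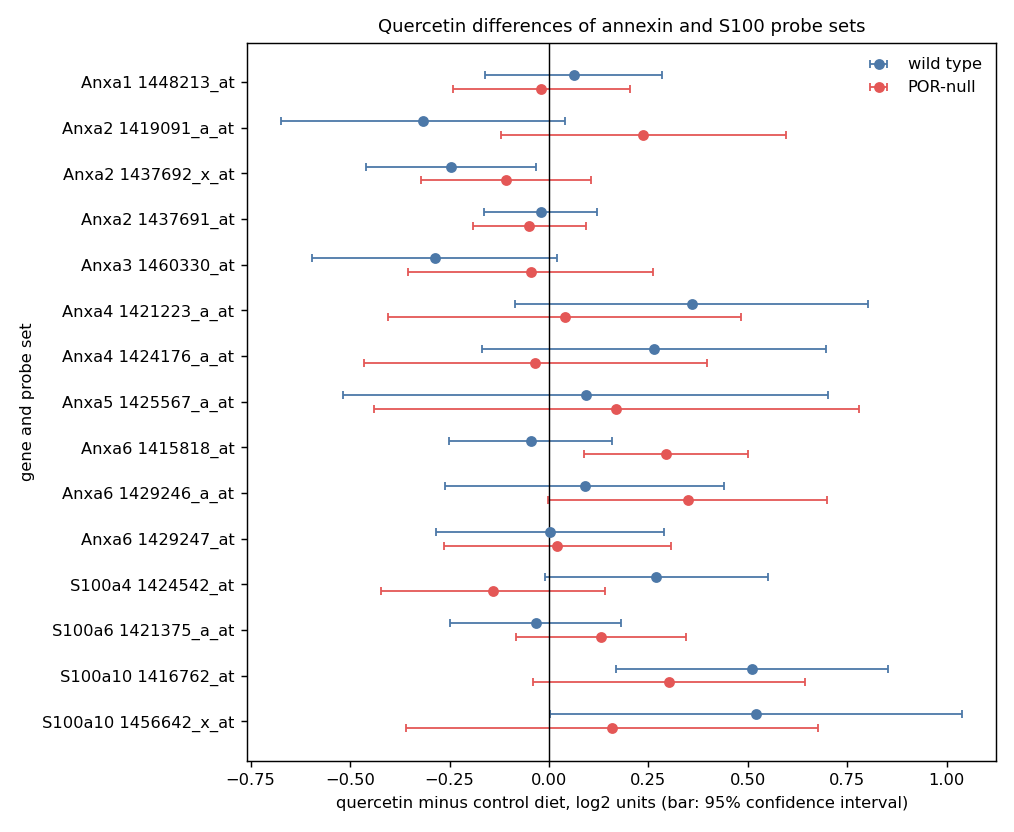
Quercetin minus control-diet differences in log2 units of the 15 member probe sets in wild type (blue) and POR-null (red), with 95% confidence intervals as bars. All points lie between -0.32 and 0.52 log2 units, the highest being those of S100a10 in wild type, and 0 of 15 passed in either genotype.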

How the data were processed

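The authors deposited log2 values per probe set (2.57 to 14.2). MAS5 and RMA stand in the submitters' processing notes, with neither role nor version. The background correction is not given in the sources used here. Of 22690 probe sets, 64 AFFX controls were left out. Groups and pool numbers came from the sample titles. In the platform annotation 20380 probe sets carried 1 symbol, 691 several and 1555 none, and only the first were named. For each gene the probe set brightest on average over 12 arrays stood for it.

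Values were tested without further normalization in limma 3.58.1 (R 4.3.3), with a mean per group over all 12 arrays, an intensity trend in the variance prior, two-sided tests and Benjamini-Hochberg adjustment over 22626 probe sets at 0.05. The procedure was tested on simulated data. The median half-width of a 95% confidence interval was 0.24 log2 units, which the number of arrays limits. Each replicate is a pool of 3 mice, so p-values rest on differences among pools. Array medians lay between 5.93 and 5.99, and the highest correlation between arrays was 0.993.

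The members and the lists of family members, partners and cell markers were chosen with earlier results of these data known. Named genes were all members, listed genes that passed or whose values stand beside a member's, and for each member the 3 genes most correlated with it. The alternatives were quantile normalization, a filter on the 40% dimmest probe sets, a variance prior without trend or robust, the pool number as a block, array weights, only the groups compared, the mean of a gene's probe sets, and each array left out in turn. Figures were drawn with matplotlib 3.10.9.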

Additional observations from a re-analysis of the deposited data

How the results depend on the processing

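S100a10 by its brighter probe set passed on the quercetin diet under all 14 alternatives run (differences of 0.91 to 1.10 log2 units, limma adjusted p = 0.000157 to 0.0332). Anxa5 passed under 12 of 14, the exceptions being the fits without wild-type quercetin array 2 or POR-null quercetin array 2 (differences of 1.49 to 1.79 over all 14). It passed only narrowly with the robust variance prior (limma adjusted p = 0.0498) and without POR-null quercetin array 1 (limma adjusted p = 0.0496). The dimmer S100a10 probe set passed with array weights (limma adjusted p = 0.0286) and in a fit of only the groups compared (limma adjusted p = 0.00144). Member probe sets past the threshold on that diet numbered 4 with array weights and 1 to 2 with an array left out.

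Over all probe sets the quercetin-diet genotype comparison gave 1052 with array weights, 950 with only the groups compared, and 127 to 389 with an array left out. The control-diet comparison gave 30 with only the groups compared and 35 to 756 with an array left out, the highest without wild-type control array 1. Quercetin in wild type gave 1 with the filter, 1 without the trend, 2 with the pool number as a block and 0 to 151 with an array left out, the highest without wild-type control array 1. Quercetin in POR-null gave 0 to 4 and the interaction 0 to 1 with an array left out. The genotype calls of Tlr4, Mpeg1 and Sparc, which are not members, lay near the threshold and were not followed under these alternatives.

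Deviations of same-numbered pools correlated at r = -0.18 to 0.24, with 5 of 18 pairs over 0.1. Pairs numbered 1 were all above 0, at 0.04 to 0.16, and those numbered 2 and 3 had both signs. The numbers were not taken to pair the arrays. With the number as a block S100a10 (limma adjusted p = 0.00684) and Anxa5 (limma adjusted p = 0.00683) stayed past the threshold. The number of arrays limits what can be detected, and dim probe sets lie near background.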
